A study of Mus musculus with 16 samples.

Results

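Atrial tissue taken 7 days after a myocardial infarction was compared with atrial tissue taken 1 day after it. The comparison uses 8 of the 16 arrays of the series, 4 from day 7 (arrays 71 to 74) and 4 from day 1 (arrays 11 to 14), chosen by their titles. All of them came from male C57BL/6 mice, wild type and 10 weeks old at surgery, whose left anterior descending coronary artery had been tied off. Both groups therefore carry the infarct and the operation, and sham-operated animals do not enter. Total RNA was made from atrial tissue, the upper chambers of the heart, while the ligated artery lies on the ventricle. All 30604 rows with a single gene symbol, of 72688 rows in all, were read. The labels do not say whether each array holds 1 animal or whether left, right or both atria were used, and p-values measure the spread between these arrays.

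In the first day after an infarct the heart is entered by neutrophils and then by monocytes, which release cytokines and proteases and clear dead cells. Later in the first week macrophages, dividing cells and fibroblasts dominate, and fibroblasts lay down collagen and the proteins that bind and cross-link it. The ligated artery mainly supplies the left ventricle. The atria receive blood ahead of that ventricle, share the pericardial space with it, and are where atrial fibrillation arises.

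Values are the deposited log2 signals, and differences are day 7 minus day 1 on that scale. Each difference is given ± its standard error with a p-value from limma adjusted over all 17605 genes tested, and a gene is called at an adjusted p under 0.05. Values of single arrays are listed in the order 71 to 74 and then 11 to 14. A gene that did not exceed the negative control median on any of the 4 arrays of a group has only a bound there, and its difference is given as "at least".

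Array 13 of day 1 stood apart and was set aside in a second run of every test. Its control separation, the chance that a positive control row outshines a negative one, was 0.755, against 0.793 to 0.804 on the other day 1 arrays. The day 7 arrays had 0.813 to 0.823. The group means were 0.817 ± 0.0046 at day 7 and 0.787 ± 0.022 at day 1 (SD, n = 4 each), and the exact permutation test (two-sided) gave 0.0286, its smallest possible p with 4 against 4. The median of the negative control rows was 4.51 at day 7 and 4.75 at day 1, so the dim end of the scale was lower at day 7. Rows for genes that atria are not known to use were often lower too. At day 7, 195 of 345 olfactory receptor genes and 90 of 114 vomeronasal receptor genes were called lower, with medians of -0.55 and -0.75. After quantile normalisation 146 and 74 were lower, with medians of -0.38 and -0.58. Those families were picked after values were seen. The part of the lower dim end in these and in other small falls was not tested. At the bright end, 52 genes sat on a plateau near the top of the scale, among them Nppa, which encodes atrial natriuretic peptide, and Ankrd1, a stretch-responsive nuclear protein, both at 19.93 on 7 of 8 arrays. No difference was read for these. Of the tissue markers, all 16 atrial cardiomyocyte markers on the table lay above the negative controls on at least 1 array and 15 on all 8, while all 5 thymus markers and 6 of 7 lung markers stayed below them on every array. All 6 ventricular cardiomyocyte markers were also above them on at least 1 array and 5 on all 8, with a mean level of 9.52 to 9.73 at day 7 and 8.57 to 9.60 at day 1, so these markers do not set atrium apart from ventricle. Above them on at least 1 array were also 7 of 10 skeletal muscle and 5 of 7 adipocyte markers, and the part of such tissue in the results was not tested.

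In all, 7046 genes were called, which is 40% of those tested. Of these, 3041 were higher at day 7 (17.3%) and 4005 lower (22.7%), and the median difference over all genes was -0.02. Without array 13 the counts were 6689 called (38%), 2840 higher (16.1%) and 3849 lower (21.9%), and 6247 genes were called both ways, none with opposite signs. A difference of at least 1 was reached by 1881 called genes (10.7%), 752 higher (4.27%) and 1129 lower (6.41%), or by 1459 (8.29%) without array 13, 626 higher (3.56%) and 833 lower (4.73%). The groups did not overlap in 7457 genes (42.4%), 3332 with day 7 higher (18.9%) and 4125 with day 7 lower (23.4%). The balance depended on the scaling: 70.3% of called genes were higher after quantile normalisation, 66.3% after centring each array on its median and 74.2% after subtracting the negative control median, against 43.2% on the deposited values. Under those scalings the median difference of all genes was 0.17, 0.17 and 0.21. Among the 12042 protein-coding genes alone, 2825 were higher (23.5%) and 2061 lower (17.1%) on the deposited values. With this many genes called, a list is read below by its share of called members beside 17.3% and 22.7%, and by the size of its changes. For lists of protein-coding genes, the shares of 23.5% and 17.1% are the closer comparison. Lists and their members were chosen with earlier results of these data known, so list shares are a description and no test.

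The largest changes had plain identities. Only called genes whose groups did not overlap were ranked. The 12 largest rises were 4 collagen chains (Col1a1, Col1a2, Col3a1 and Col14a1), matrix proteins (Aspn, Postn, Mfap4 and Fbln5), the secreted factors Ptn and Sfrp1, the membrane protein Itm2a and Mki67, a marker of dividing cells. The 12 largest falls held products of neutrophils (Retnlg, S100a8, S100a9, Il1r2, Stfa2l1 and Lcn2), Slfn4, Arg1, the cytokines Cxcl2 and Il1b, the platelet chemokine Ppbp and Prg4. A gene at background in a group was ranked by its bound, which left out C1qtnf3 among the rises and Mmp8 among the falls, whose measured differences were 4.80 and -4.79. Aspn, the collagen-binding proteoglycan asporin, had signals of 16.20, 16.61, 16.59 and 17.10 at day 7, against 9.78, 10.03, 7.61 and 9.87 at day 1. Retnlg, a resistin-like protein of neutrophils, had signals of 4.34, 4.26, 4.54 and 4.39 at day 7, against 12.43, 11.63, 15.25 and 12.12 at day 1. Between them, these genes span the comparison, with differences of 7.30 ± 0.52, adjusted p = 5.99e-05 for Aspn and -8.48 ± 0.70, adjusted p = 0.000117 for Retnlg. Retnlg was at background on 3 of the 4 day 7 arrays, so the floor limits the size of its fall. Array 13 held the lowest Aspn and the highest Retnlg of all 8 arrays, and without it the differences were 6.73 and -7.68.

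**Figure D1:**
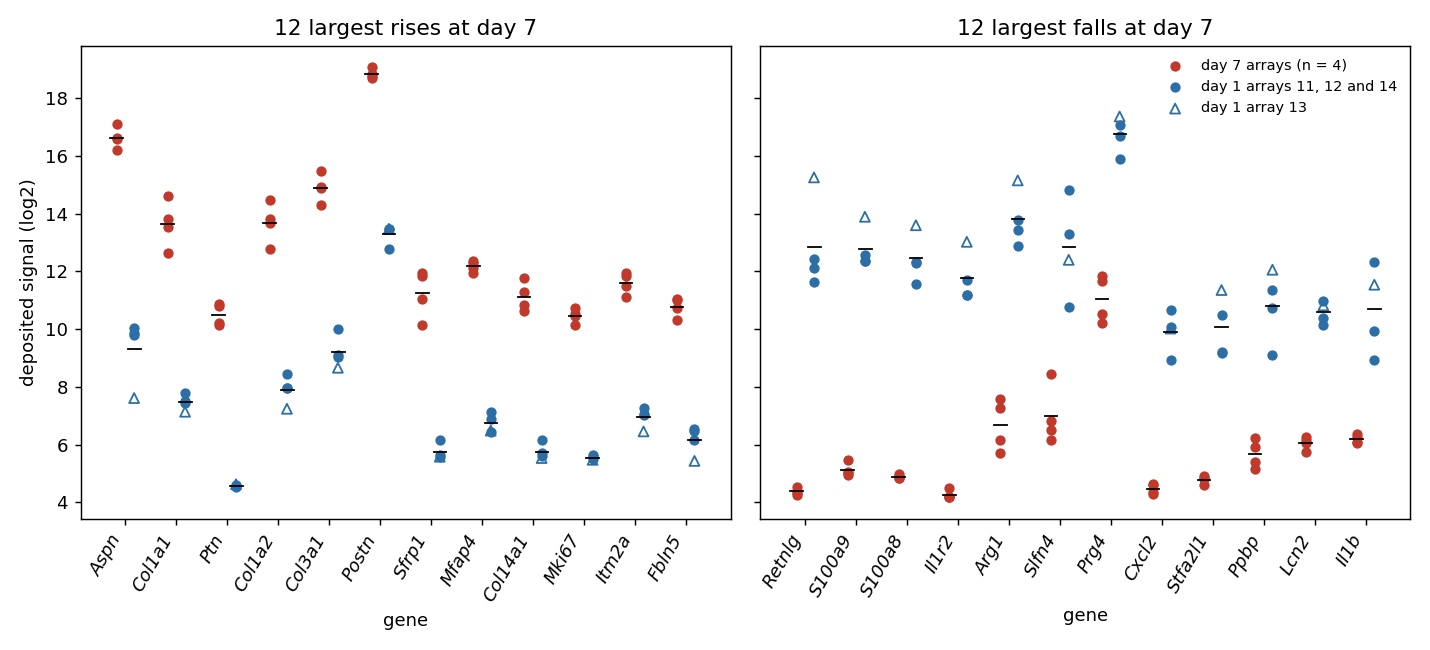
Deposited log2 signal of the 12 largest rises (left panel) and the 12 largest falls (right panel) on each array, genes at background in a group being ranked by their bound, which leaves out C1qtnf3 and Mmp8. Red points are the 4 day 7 arrays, blue points day 1 arrays 11, 12 and 14, open triangles day 1 array 13, and black bars the group means. The 24 genes were chosen only among called genes whose groups do not overlap. The largest difference in each direction is 7.30 for Aspn and -8.48 for Retnlg.

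Neutrophil genes were lower at day 7 throughout. All 16 tested members of the neutrophil list were called lower, 16 of 16 without array 13 as well, with a median difference of -3.62. S100a9, a subunit of the calcium-binding protein calprotectin, had signals of 5.07, 4.95, 5.01 and 5.47 at day 7, against 12.34, 12.37, 13.89 and 12.56 at day 1, and its partner S100a8 had 4.91, 4.84, 4.84 and 4.99 at day 7, against 11.56, 12.30, 13.60 and 12.34 at day 1. On day 1 array 13 carried the highest signal for both, and the day 7 arrays lay within 1 unit of the negative control median. Their differences were -7.67 ± 0.34, adjusted p = 7.56e-06 for S100a9 and -7.55 ± 0.37, adjusted p = 1.1e-05 for S100a8.

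The receptors and enzymes of neutrophils followed. Il1r2, the decoy receptor for interleukin-1, had signals of 4.18, 4.17, 4.20 and 4.48 at day 7, against 11.72, 11.20, 13.02 and 11.18 at day 1, and since every day 7 array was at background it fell by at least 7.27. Csf3r, the receptor for granulocyte colony-stimulating factor, averaged 5.64 ± 0.23 at day 7 and 9.37 ± 0.48 at day 1 (SD, n = 4 each), a difference of -3.73 ± 0.23, adjusted p = 3.35e-05. Its 4 day 7 arrays all lay below its 4 day 1 arrays. Cxcr2, through which neutrophils sense chemokines, differed by -3.45 ± 0.31, adjusted p = 0.000181, and Mmp8, neutrophil collagenase, fell by at least 4.23. Slfn4, a myeloid gene of the Schlafen family, was the most scattered of the strong falls, with signals of 6.83, 6.15, 6.52 and 8.46 at day 7, against 14.83, 10.78, 12.40 and 13.31 at day 1. Its difference was -5.84 ± 0.84, adjusted p = 0.00166. In bulk tissue fewer cells of a type and less RNA per cell cannot be told apart. Array 13 had the highest signal of all 8 arrays in 13 of the 16 neutrophil genes.

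Platelet products fell too. Ppbp, a platelet chemokine precursor, had signals of 6.24, 5.14, 5.91 and 5.42 at day 7, against 11.34, 10.75, 12.06 and 9.09 at day 1. Pf4, platelet factor 4, had signals of 8.07, 7.86, 7.51 and 8.13 at day 7, against 11.02, 10.79, 11.27 and 10.35 at day 1. Both were lower on every day 7 array, by -5.13 ± 0.58, adjusted p = 0.000556 for Ppbp and -2.96 ± 0.22, adjusted p = 7.49e-05 for Pf4. Another of the 4 tested members, Gp9, was lower by a small step (-0.26 ± 0.09, adjusted p = 0.0488) and was not called without array 71, 72, 73, 74, 11 or 13 (adjusted p 0.0534 to 0.123). The erythroid marker Alas2 differed by -0.13 ± 0.09, adjusted p = 0.251.

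Genes of recruited monocytes were mostly lower at day 7, with 9 of 13 called lower and 1 called higher. Arg1, arginase 1, which inflammatory monocytes and macrophages switch on early after injury, had signals of 7.58, 6.16, 5.72 and 7.27 at day 7, against 13.45, 13.76, 15.15 and 12.87 at day 1. That is a difference of -7.12 ± 0.56, adjusted p = 9.83e-05. Itgam, the integrin chain CD11b, averaged 8.54 ± 0.67 at day 7 and 12.35 ± 0.72 at day 1, a difference of -3.81 ± 0.42, adjusted p = 0.000516. Ccr1 and Ccr2, chemokine receptors that bring monocytes into tissue, differed by -4.41 ± 0.24, adjusted p = 1.93e-05 and -1.84 ± 0.40, adjusted p = 0.00867. For all of these genes the groups did not overlap. Ly6c2 had a positive difference that was not called (0.80 ± 0.38, adjusted p = 0.12). Fibronectin, Fn1, was on the same list and went the other way, with signals of 15.79, 15.96, 14.76 and 16.66 at day 7, against 12.75, 13.88, 14.77 and 12.68 at day 1, and it was called higher (2.27 ± 0.54, adjusted p = 0.0129) with array 13 overlapping day 7.

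Chemokines and cytokines were mostly lower or not called. Of 21 tested, 12 were called lower, with the same count without array 13. Il1b, the cytokine interleukin-1 beta, had signals of 6.11, 6.25, 6.04 and 6.35 at day 7, against 9.94, 8.95, 11.54 and 12.32 at day 1, a difference of -4.50 ± 0.65, adjusted p = 0.0017. Cxcl2, which attracts neutrophils, had 4.29, 4.37, 4.62 and 4.62 at day 7, against 10.06, 8.92, 10.02 and 10.66 at day 1, and its difference was -5.44 ± 0.32, adjusted p = 2.55e-05. On day 1 both spread over more than 1 unit, with array 12 lowest in each, and no day 7 array reached that level. Ccl2, which attracts monocytes, differed by -4.13 ± 0.43, adjusted p = 0.000415, Cxcl1 by -1.83 ± 0.12, adjusted p = 4.87e-05 and Il6 by -1.72 ± 0.29, adjusted p = 0.00327. At day 7 Cxcl1 was at background on 3 arrays and Cxcl2 on 2, so the floor limits the sizes of both falls.

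The pair called higher were Cxcl9 and Ccl8. Cxcl9, an interferon-gamma-induced chemokine for T cells, had signals of 8.10, 6.86, 7.87 and 10.80 at day 7, against 5.40, 5.24, 5.22 and 5.07 at day 1. Ccl8, a chemokine that macrophages make, had signals of 7.11, 7.52, 7.12 and 7.98 at day 7, against 4.42, 4.62, 4.62 and 4.93 at day 1. Every day 7 array exceeded every day 1 array for both, with array 74 highest, and the differences were 3.17 ± 0.72, adjusted p = 0.0103 for Cxcl9 and 2.78 ± 0.20, adjusted p = 6.43e-05 for Ccl8.

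Of 18 general macrophage genes tested, 7 were called higher and 4 lower, the lower share being near the 22.7% over all genes. The count of higher ones was 4 without array 72. Adgre1, a surface marker of mouse macrophages, had signals of 10.69, 11.23, 10.31 and 11.23 at day 7, against 8.49, 8.82, 8.93 and 8.72 at day 1, and Lyz2, lysozyme, had 16.91, 17.44, 16.64 and 17.70 at day 7, against 14.84, 15.16, 15.87 and 15.12 at day 1. The groups did not overlap, and the differences were 2.13 ± 0.22, adjusted p = 0.000409 for Adgre1 and 1.92 ± 0.28, adjusted p = 0.00184 for Lyz2. Csf1r, the receptor for the macrophage growth factor, differed by 1.38 ± 0.21, adjusted p = 0.00229. Mpeg1, a pore-forming protein of macrophages, differed by 1.64 ± 0.44, adjusted p = 0.0196, and was not called without array 72 (adjusted p 0.0557). On the other side Msr1, a scavenger receptor, had signals of 8.23, 8.47, 7.80 and 8.74 at day 7, against 10.62, 10.34, 11.76 and 10.73 at day 1, a difference of -2.55 ± 0.32, adjusted p = 0.00094. The pan-leukocyte gene Ptprc and the lysosomal marker Cd68 were not called (-0.00 ± 0.36, adjusted p = 0.994 and 0.23 ± 0.40, adjusted p = 0.654).

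Of 13 genes of resident macrophages, 6 were called higher and 2 lower. The lower share was below the 22.7% over all genes and near the 17.1% of protein-coding genes. Fcrls, a myeloid gene related to Fc receptors, had signals of 8.10, 8.48, 7.76 and 8.46 at day 7, against 5.11, 5.15, 5.10 and 5.28 at day 1, a difference of 3.04 ± 0.16, adjusted p = 1.39e-05. Folr2, folate receptor beta, differed by 1.92 ± 0.28, adjusted p = 0.00182, and Gas6, a ligand for receptors that take up dead cells, by 2.15 ± 0.39, adjusted p = 0.00448. F13a1, the coagulation factor XIII A chain, had signals of 11.45, 11.19, 11.28 and 10.96 at day 7, against 12.82, 13.30, 13.82 and 12.79 at day 1, and all day 7 arrays were below day 1 (-1.96 ± 0.24, adjusted p = 0.000857). Lyve1, a hyaluronan receptor, was lower by a smaller step (-0.82 ± 0.23, adjusted p = 0.0236), not called without array 11 or 14 (adjusted p 0.0503 to 0.0586), while Timd4, Cd163 and Mrc1 were not called, with differences of 0.17, -0.46 and -0.57.

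Macrophage genes of lipid handling and lysosomes leaned upward, with 7 of 13 called higher and 1 lower. Apoe, apolipoprotein E, had signals of 10.99, 11.22, 10.90 and 11.46 at day 7, against 8.62, 8.92, 8.48 and 8.66 at day 1, with tight groups and a difference of 2.48 ± 0.16, adjusted p = 3.67e-05. Ctsk, a cathepsin that digests collagen, differed by 1.85 ± 0.12, adjusted p = 3.67e-05. Gpnmb, a glycoprotein of lipid-laden macrophages, had signals of 7.00, 9.54, 6.65 and 11.08 at day 7, against 5.06, 5.24, 5.34 and 5.32 at day 1. It was higher on each day 7 array but ranged over more than 4 units among them, and its difference of 3.33 ± 0.90, adjusted p = 0.02 was not called without array 72 (adjusted p 0.0569). Trem2, a lipid receptor, was at background at day 1 and rose by at least 0.62.

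Genes of antigen presentation and complement were mostly higher at day 7. Of 7 tested MHC class II genes, 4 were called higher and none lower, with a median of 1.31. H2-Ab1, a chain of the class II molecule, had signals of 11.73, 12.40, 11.16 and 13.40 at day 7, against 9.55, 10.16, 10.09 and 9.63 at day 1, and H2-Aa, its partner, had 7.10, 7.70, 6.83 and 8.19 at day 7, against 5.29, 5.84, 5.96 and 5.62 at day 1. Array 74 was highest and array 73 lowest of the day 7 arrays for both, all above day 1, and the differences were 2.32 ± 0.44, adjusted p = 0.00524 and 1.77 ± 0.29, adjusted p = 0.00294.

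Of 11 tested complement genes 8 were called higher and 2 lower, with a median of 1.75. C1qb, a chain of the recognition molecule C1q, had signals of 13.87, 14.04, 13.35 and 14.61 at day 7, against 11.05, 11.26, 10.12 and 10.96 at day 1, a difference of 3.12 ± 0.32, adjusted p = 0.000364. C1qa and C1qc differed by 2.24 ± 0.30, adjusted p = 0.00115 and 2.43 ± 0.31, adjusted p = 0.000919. Serping1, the inhibitor of C1, differed by 2.55 ± 0.26, adjusted p = 0.000348. Their groups did not overlap. The falls were Cfp (-0.62), properdin, and C5ar1 (-0.60), the receptor for C5a. Of 11 lymphocyte markers on the table, 9 were at or below the negative controls on all 8 arrays.

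Interferon-stimulated genes were mostly higher at day 7, with 9 of 14 called higher and none lower, 7 without array 13, and a median of 1.76. Bst2, tetherin, had signals of 14.34, 13.16, 13.71 and 15.47 at day 7, against 11.29, 10.00, 9.51 and 10.97 at day 1. Ifit1, which binds foreign RNA, had signals of 10.87, 9.31, 10.98 and 13.26 at day 7, against 8.75, 6.94, 7.76 and 8.49 at day 1. For both, the groups did not overlap and array 74 lay well above the other day 7 arrays. Their differences were 3.73 ± 0.55, adjusted p = 0.00192 for Bst2 and 3.12 ± 0.77, adjusted p = 0.0146 for Ifit1. Usp18, which curbs interferon signalling, differed by 2.63 ± 0.56, adjusted p = 0.00822, and Irf7, a transcription factor of the pathway, by 1.78 ± 0.38, adjusted p = 0.00865. Isg15, Mx1 and Rsad2 were not called (0.341, 0.271 and 0.0956 as adjusted p), and their groups overlapped. Array 74 was the highest of all 8 arrays in all 14 genes, and array 12 the lowest in 12. The calls depend on whose spread is used: 5 genes were called when all 16 arrays entered the fit and 1 when days 1, 3 and 7 did.

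Genes of this pathway can carry a response element in their promoters, and its letters were looked for. GAAA followed, after any 2 bases, by GAAA again, on either strand and with overlapping matches counted, occurred between 250 bases before and 50 bases after the start in 6 of 12 promoters (50%) of 11 tested interferon genes, against 3.44% of all 32851 promoters of the RefSeq table on GRCm38.p6. The 150 bases before the start of Ifit1 (chr19:34640739-34640888, plus strand) and of Bst2 (chr8:71537473-71537622, minus strand) are shown because these genes rose most in the list, with the matches in capitals.
Ifit1: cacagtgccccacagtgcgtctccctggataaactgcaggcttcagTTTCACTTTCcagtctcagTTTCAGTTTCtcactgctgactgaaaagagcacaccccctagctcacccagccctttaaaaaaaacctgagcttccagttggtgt
Bst2: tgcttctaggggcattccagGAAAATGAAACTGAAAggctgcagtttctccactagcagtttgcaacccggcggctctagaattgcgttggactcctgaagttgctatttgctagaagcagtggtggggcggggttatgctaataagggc
A match is a description of these letters and was not measured as a binding site.

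Genes of hypoxia, oxidative stress and protein folding were mostly lower at day 7 on the deposited values, and less often after quantile normalisation. Of 17 tested genes of hypoxia and glycolysis, 11 were called lower and none higher, with a median of -0.56. After quantile normalisation 8 were lower and none higher, with a median of -0.36. Slc2a1, the glucose transporter GLUT1, had signals of 8.74, 8.84, 8.01 and 8.64 at day 7, against 11.81, 11.28, 12.85 and 12.28 at day 1. That is a difference of -3.50 ± 0.34, adjusted p = 0.000278, with no overlap. Adm, the vessel-relaxing peptide adrenomedullin, differed by -2.88 ± 0.43, adjusted p = 0.00189, Egln3, an oxygen-sensing hydroxylase, by -1.94 ± 0.24, adjusted p = 0.0009, and Vegfa, the vessel growth factor, by -1.12 ± 0.18, adjusted p = 0.003. Ldha and Aldoa, enzymes of glycolysis, were not called (-0.15 and 0.08).

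Antioxidant genes were lower in 7 of 12 and higher in 2, but only 4 were lower after quantile normalisation. The higher share was near the 17.3% over all genes. Hmox1, haem oxygenase 1, had signals of 8.29, 8.56, 6.88 and 8.17 at day 7, against 11.03, 10.73, 12.29 and 10.64 at day 1, a difference of -3.20 ± 0.46, adjusted p = 0.00164. Slc7a11, the cystine transporter, fell by at least 2.13. The called rises were Gpx3 (0.70) and Sod3 (0.48), both secreted antioxidant enzymes.

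Genes of endoplasmic reticulum stress were called lower in 9 of 13 and higher in none, with a median of -0.61, but lower in 6 and higher in 1 after quantile normalisation, with a median of -0.20. Hspa5, the chaperone BiP, had signals of 13.01, 12.76, 12.75 and 12.72 at day 7, against 14.09, 13.80, 13.86 and 14.26 at day 1, a difference of -1.19 ± 0.14, adjusted p = 0.000644. Creld2 and Xbp1, a target and a transcription factor of the unfolded protein response, differed by -1.70 ± 0.20, adjusted p = 0.000644 and -1.38 ± 0.17, adjusted p = 0.000849. Heat shock genes were called lower in 7 of 13, or 5 after quantile normalisation and 4 after subtracting the negative control median. Hspb1, a small heat shock protein, differed by -2.02 ± 0.22, adjusted p = 0.000507, and Hspa1a, inducible HSP70, with signals of 3.65, 3.51, 3.58 and 3.65 at day 7, against 7.38, 4.63, 7.78 and 5.47 at day 1, fell by at least 1.80. The day 1 arrays for Hspa1a ranged over about 3 units while the day 7 arrays were at background, and Hspa8 sat on a plateau of its own at day 7.

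Immediate early genes showed less. Of 16 tested, 6 were called lower and 2 higher, and Fos and Egr1 were not called (-0.30 ± 0.20, adjusted p = 0.258 and -0.25 ± 0.18, adjusted p = 0.274). Atf3, a stress-induced transcription factor, averaged 5.84 ± 0.02 at day 7 and 7.12 ± 0.52 at day 1, a difference of -1.29 ± 0.23, adjusted p = 0.0041, and Myc differed by -1.15 ± 0.15, adjusted p = 0.0011. Both had day 7 arrays below all day 1 arrays. The glucocorticoid list had 3 of 12 called lower, near the 22.7% over all genes. They were Cdkn1a (-1.79), Angptl4 (-1.48) and Fkbp5 (-0.91), the last being a regulator of the steroid receptor. Without array 13 there were 4 called lower. Zbtb16 of this list was -1.18 (adjusted p = 0.13) with that array and -1.76 (adjusted p = 0.0082) without it.

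Of 13 clock genes, 5 were called higher and 2 lower. The lower share was below the 22.7% over all genes and near the 17.1% of protein-coding genes. Dbp, an output gene of the circadian clock, had signals of 8.89, 8.40, 8.55 and 8.73 at day 7, against 6.53, 6.61, 5.72 and 6.93 at day 1, and Per3 had 6.12, 6.26, 6.09 and 6.34 at day 7, against 4.94, 5.05, 4.81 and 4.97 at day 1. They were higher on every day 7 array, by 2.20 ± 0.24, adjusted p = 0.000523 for Dbp and 1.26 ± 0.08, adjusted p = 3.67e-05 for Per3. Arntl, which encodes BMAL1, and the repressor Cry1 were lower (-0.32 ± 0.10, adjusted p = 0.0301 for Arntl and -0.51 ± 0.07, adjusted p = 0.0015 for Cry1). Arntl was not called without array 71, 73, 74, 11, 12 or 14 (adjusted p 0.0515 to 0.0741). The hour of sampling was not given in the labels.

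Collagen genes rose in nearly all members. Of 18 tested chains 17 were called higher and none lower, 15 without array 13, with a median of 2.25. Col1a1, a chain of the main fibrillar collagen, had signals of 13.81, 13.54, 12.65 and 14.60 at day 7, against 7.51, 7.43, 7.14 and 7.78 at day 1. Its partner Col1a2 had signals of 13.81, 13.68, 12.77 and 14.46 at day 7, against 7.94, 7.95, 7.24 and 8.43 at day 1. The lowest day 7 array, 73, was still far above the highest day 1 array in each, with differences of 6.19 ± 0.37, adjusted p = 2.63e-05 and 5.79 ± 0.37, adjusted p = 3.67e-05. Col3a1, the collagen of young scar, differed by 5.70 ± 0.33, adjusted p = 2.43e-05. Col8a1, a short-chain collagen, differed by 3.92 ± 0.24, adjusted p = 3e-05, and Col14a1, which decorates fibrils, by 5.38 ± 0.26, adjusted p = 1.07e-05. The basement membrane chains changed less, with 0.88 ± 0.25, adjusted p = 0.0252 for Col4a1, not called without array 71, 72, 74, 13 or 14 (adjusted p 0.0521 to 0.0678). Col5a3 was the chain not called (0.08).

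The enzymes that finish collagen rose with it, in 12 of 15 members and with the same count without array 13. Lox, lysyl oxidase, which cross-links fibrils, had signals of 12.79, 13.30, 11.50 and 13.13 at day 7, against 10.05, 8.90, 10.29 and 9.85 at day 1, a difference of 2.90 ± 0.44, adjusted p = 0.0021. Loxl1 and Loxl3, of the same family, differed by 2.61 ± 0.23, adjusted p = 0.000156 and 2.06 ± 0.28, adjusted p = 0.00132. The groups did not overlap. The prolyl hydroxylase subunit P4ha1 was not called (-0.26).

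All 14 tested genes of elastic fibres were called higher, also without array 13, with a median of 1.90. Eln, elastin, had signals of 11.33, 11.04, 10.74 and 10.48 at day 7, against 7.23, 7.26, 7.13 and 7.41 at day 1. Mfap4, a microfibril-associated protein, had signals of 12.28, 12.35, 11.96 and 12.10 at day 7, against 6.90, 6.42, 6.49 and 7.13 at day 1. The spread within each group was under 1 unit, and the differences were 3.64 ± 0.18, adjusted p = 1.16e-05 for Eln and 5.44 ± 0.18, adjusted p = 1.47e-06 for Mfap4. Fbln5, which helps assemble elastin, differed by 4.62 ± 0.27, adjusted p = 2.43e-05.

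Proteoglycans were called higher in 10 of 14 and lower in 2. Besides Aspn, Ogn, osteoglycin, had signals of 17.28, 17.59, 17.80 and 17.91 at day 7, against 13.77, 14.73, 11.28 and 14.25 at day 1, and Lum, lumican, had 13.61, 14.22, 14.47 and 14.63 at day 7, against 9.95, 10.43, 9.31 and 10.87 at day 1. Array 13 was the lowest array for both. With all arrays the differences were 4.14 ± 0.67, adjusted p = 0.00271 for Ogn and 4.09 ± 0.35, adjusted p = 0.000156 for Lum, and without it 3.39 and 3.82. Fmod, fibromodulin, was at background at day 1 and rose by at least 0.43. Prg4, lubricin, a lubricant of mesothelial and joint surfaces, was lower, with signals of 11.83, 11.65, 10.21 and 10.54 at day 7, against 16.70, 15.91, 17.36 and 17.08 at day 1 and a difference of -5.70 ± 0.44, adjusted p = 8.82e-05. No day 7 array came within 4 units of the lowest day 1 array. The other fall was Has1, a hyaluronan synthase (-0.50 ± 0.17, adjusted p = 0.0455), not called without array 71, 72, 74, 11, 13 or 14 (adjusted p 0.0532 to 0.108). Has2 and Vcan were not called (-0.28 and -0.48).

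Matricellular proteins, which sit in the matrix and signal to cells, were called higher in 14 of 18 and lower in 2. Postn, periostin, had signals of 18.70, 18.83, 18.78 and 19.06 at day 7, against 13.48, 12.76, 13.47 and 13.47 at day 1, a difference of 5.55 ± 0.18, adjusted p = 1.45e-06. Thbs2 and Thbs4, of the thrombospondin family, differed by 4.47 ± 0.38, adjusted p = 0.000137 and 3.76 ± 0.40, adjusted p = 0.000448. Cthrc1, a protein of activated fibroblasts, differed by 3.15 ± 0.30, adjusted p = 0.000243. The falls were Thbs1, with signals of 11.36, 11.39, 10.93 and 12.24 at day 7, against 14.63, 13.77, 14.93 and 13.02 at day 1 (-2.61 ± 0.44, adjusted p = 0.0034), and Ccn1 (-1.37 ± 0.44, adjusted p = 0.0391), the second being not called without array 71, 72, 73, 74, 11, 13 or 14 (adjusted p 0.0642 to 0.0907). Thrombospondins thus lay on both sides, Thbs1 lower and Thbs2, Thbs3 and Thbs4 higher at day 7.

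Matrix proteases and their inhibitors also divided, with 7 of 23 called higher and 12 lower. Mmp2, a gelatinase that fibroblasts make, had signals of 12.37, 12.51, 11.85 and 12.62 at day 7, against 8.40, 8.02, 7.14 and 8.74 at day 1, a difference of 4.26 ± 0.34, adjusted p = 0.000101. Mmp9, the gelatinase of neutrophils, fell by at least 1.94, its day 7 arrays being at background. Mmp3, stromelysin 1, differed by -2.75 ± 0.28, adjusted p = 0.000325. The inhibitors did the same: Timp2 had signals of 10.85, 10.94, 10.56 and 11.04 at day 7, against 8.10, 8.02, 7.74 and 8.50 at day 1 (2.76 ± 0.18, adjusted p = 4.03e-05), and Timp1 had 8.96, 8.79, 7.52 and 8.84 at day 7, against 10.92, 9.94, 11.18 and 10.70 at day 1 (-2.16 ± 0.37, adjusted p = 0.00372). Timp1 was lower and Timp2 higher on every day 7 array than on every day 1 array.

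Fibroblast genes not tied to activation rose as well, in 11 of 14 members, with a median of 1.67. Dpt, dermatopontin, had signals of 15.40, 15.73, 15.67 and 16.01 at day 7, against 11.73, 11.95, 9.99 and 12.48 at day 1, a difference of 4.17 ± 0.48, adjusted p = 0.000605. Tcf21, a transcription factor of cardiac fibroblasts, differed by 1.92 ± 0.19, adjusted p = 0.000309, and Pi16, a marker of resting fibroblasts, by 1.80 ± 0.11, adjusted p = 2.55e-05. Cd34, shared by fibroblasts and endothelium, differed by 2.91 ± 0.28, adjusted p = 0.000279. Array 13 was the lowest of all arrays in 11 of these 14 genes, and 11 were called higher without it too.

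Smooth muscle and myofibroblast genes were called higher in 7 of 17 and lower in 1, and in 13 and 0 after quantile normalisation. Tagln, transgelin, had signals of 8.89, 9.36, 9.67 and 9.42 at day 7, against 7.00, 7.19, 7.57 and 7.77 at day 1, a difference of 1.95 ± 0.22, adjusted p = 0.000516. Myl9, a myosin light chain of smooth muscle, differed by 2.77 ± 0.49, adjusted p = 0.00403. Acta2, smooth muscle actin, the usual mark of myofibroblasts, had signals of 14.31, 14.47, 14.68 and 14.64 at day 7, against 13.73, 13.67, 11.90 and 14.33 at day 1. It was not called with all arrays (1.12 ± 0.46, adjusted p = 0.081), array 13 being lowest and array 14 overlapping day 7, and its difference was 0.61 (adjusted p = 0.0311) without array 13.

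Signals linked to fibrosis were called higher in 14 of 25 and lower in 4. Ptn, the growth factor pleiotrophin, had signals of 10.15, 10.80, 10.20 and 10.87 at day 7, against 4.60, 4.53, 4.63 and 4.57 at day 1, and with day 1 at background it rose by at least 5.76. Sfrp1, a secreted Wnt inhibitor, had signals of 11.04, 11.93, 10.15 and 11.85 at day 7, against 5.59, 5.63, 5.58 and 6.16 at day 1, a difference of 5.50 ± 0.38, adjusted p = 5.13e-05. Igf1, insulin-like growth factor 1, differed by 2.30 ± 0.17, adjusted p = 7e-05, and Igfbp5, which binds it, by 2.84 ± 0.38, adjusted p = 0.00122. Tgfb1, the best-known fibrosis signal, was not called (0.04 ± 0.14, adjusted p = 0.846), and Tgfb2 was lower (-0.81 ± 0.25, adjusted p = 0.0323) but not called without array 71, 73, 74, 11, 13 or 14 (adjusted p 0.06 to 0.0816). The receptors Tgfbr1 and Tgfbr2 were higher by 0.52 and 1.39, with adjusted p of 0.0271 and 0.00679, and Tgfbr1 was not called without array 71, 72, 74 or 11 (adjusted p 0.0503 to 0.0746).

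**Figure D2:**
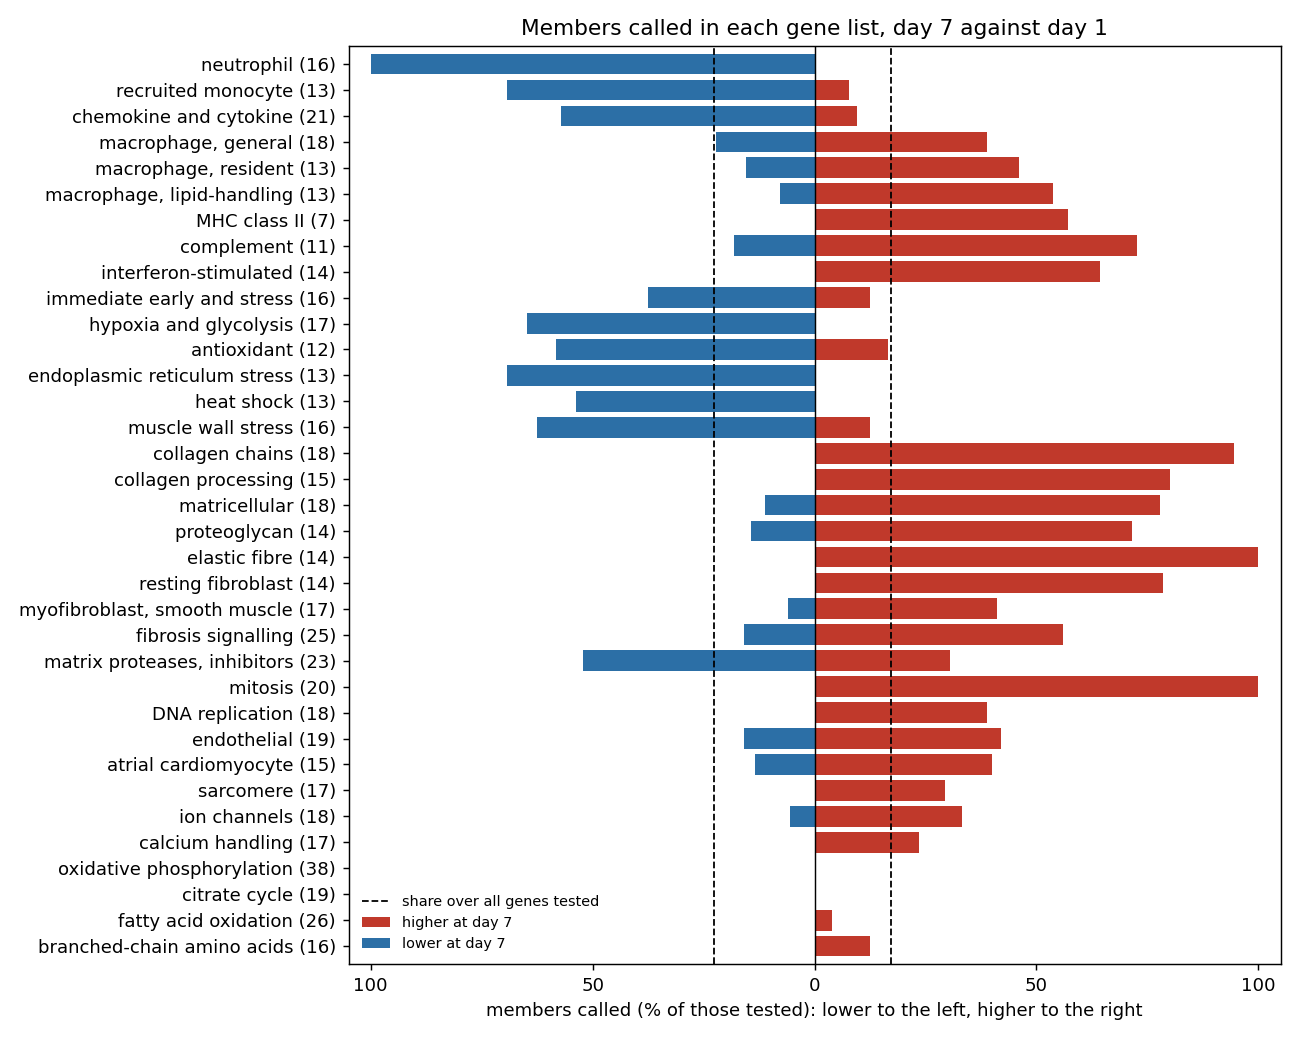
Share of tested members called higher (red, to the right) or lower (blue, to the left) at day 7 in 35 gene lists, with the number tested in brackets. Dashed lines are the shares over all genes tested, 17.3% higher and 22.7% lower; the neutrophil bar is all lower, the elastic fibre and mitosis bars are all higher, and the bars for oxidative phosphorylation and the citrate cycle are empty.

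Mitosis genes rose together. All 20 tested genes of mitosis were called higher, with and without array 13, with a median of 1.94. Their mean level at day 1, 4.75 to 4.84, was near the negative control medians of those arrays, 4.69 to 4.87. Kif11 was at background on 1 day 1 array. The dim end of the scale therefore limits how the sizes of these rises can be read. Mki67, which encodes Ki-67, had signals of 10.73, 10.44, 10.15 and 10.54 at day 7, against 5.51, 5.63, 5.47 and 5.60 at day 1. Top2a, topoisomerase II alpha, had signals of 8.34, 8.15, 8.33 and 8.40 at day 7, against 5.30, 5.43, 5.34 and 5.53 at day 1. Kif11, the kinesin that pushes spindle poles apart, had signals of 8.17, 8.02, 7.97 and 8.14 at day 7, against 4.81, 4.75, 4.69 and 4.84 at day 1. Within each group their signals spanned less than 1 unit, with no overlap and differences of 4.91 ± 0.13, adjusted p = 8.87e-07 for Mki67, 2.91 ± 0.09, adjusted p = 1.05e-06 for Top2a and 3.30 ± 0.07, adjusted p = 4.65e-07 for Kif11. The cyclins Ccna2 and Ccnb2 differed by 2.54 ± 0.10, adjusted p = 5.54e-06 and 2.02 ± 0.12, adjusted p = 2.41e-05. Of the 20, 1 gene, the aurora kinase Aurkb, was at background on all 8 arrays, so no size is given for it.

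Genes of DNA replication showed smaller steps, with 7 of 18 called higher and none lower, or 14 after quantile normalisation. The fits with all 16 arrays and with days 1, 3 and 7 called 3 and 2. Rrm2 and Rrm1, the subunits of ribonucleotide reductase, differed by 0.77 ± 0.06, adjusted p = 7.82e-05 and 1.54 ± 0.20, adjusted p = 0.00109. Mcm5, part of the replicative helicase, was not called (0.15 ± 0.08, adjusted p = 0.154), nor was Pcna (-0.29 ± 0.11, adjusted p = 0.0646). The array does not say which cells carried these transcripts.

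Mitosis genes often share promoter letters. CCAAT, on either strand, occurred in 16 of 18 promoters (88.9%) of 16 tested mitosis genes, against 37.4% of all 32851 promoters, and TTTGAA, the letters of the cell cycle homology region, in 15 (83.3%), against 17.9%. Matches of both motifs may overlap. The 150 bases before the start of Kif11 (chr19:37376232-37376381, plus strand) and of Top2a (chr11:99024190-99024339, minus strand), GRCm38.p6, are shown as examples of genes with tight rises, with CCAAT and its complement ATTGG in capitals.
Kif11: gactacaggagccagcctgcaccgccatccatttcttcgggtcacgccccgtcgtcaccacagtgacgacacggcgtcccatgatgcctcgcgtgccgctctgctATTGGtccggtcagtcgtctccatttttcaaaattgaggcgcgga
Top2a: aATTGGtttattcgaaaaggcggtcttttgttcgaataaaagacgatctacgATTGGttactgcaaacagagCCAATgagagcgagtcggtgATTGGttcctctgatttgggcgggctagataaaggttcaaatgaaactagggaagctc
Kif11 held 1 match in this stretch and Top2a held 4.

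Vessel and surface cells changed in part. Endothelial genes were called higher in 8 of 19 and lower in 3. Kdr, the main receptor for VEGF, differed by 1.41 ± 0.35, adjusted p = 0.015, Tie1, a receptor of vessel growth, by 0.99 ± 0.16, adjusted p = 0.00278, and Pecam1, an adhesion molecule, by 0.80 ± 0.17, adjusted p = 0.0091. Aplnr, the apelin receptor, had signals of 8.78, 8.19, 7.59 and 8.47 at day 7, against 5.97, 5.81, 6.34 and 6.25 at day 1 and the largest rise of the list (2.16 ± 0.25, adjusted p = 0.000584). Selp, P-selectin, to which leukocytes first bind, had signals of 4.80, 5.22, 4.74 and 4.68 at day 7, against 9.34, 6.65, 10.02 and 9.41 at day 1. Array 12 was more than 2 units below the other day 1 arrays, and the difference of -4.00 ± 0.65, adjusted p = 0.00274 was -4.73 without it. Sele, E-selectin, differed by -1.60 ± 0.34, adjusted p = 0.00817.

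Genes of the mesothelium and epicardium, the outer lining of the heart, were called higher in 8 of 14 and lower in 1. Upk3b, a uroplakin of mesothelium, had signals of 7.13, 7.44, 7.47 and 6.51 at day 7, against 5.41, 4.72, 6.61 and 5.73 at day 1, and its groups overlapped through arrays 13 and 74. Its difference was 1.52 ± 0.38, adjusted p = 0.0159. Msln, mesothelin, differed by 1.07 ± 0.36, adjusted p = 0.0452, and was not called without array 71, 72, 73, 11, 12 or 14 (adjusted p 0.0771 to 0.111). Array 12 was the lowest array in 10 of the 14 genes. The mean level of the list was 6.06 to 6.49 at day 7 and 5.14 to 6.40 at day 1. The part of the amount of lining in each sample was not tested.

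Atrial cardiomyocyte genes were called higher in 6 of 15 and lower in 2, though fits with all 16 arrays and with days 1, 3 and 7 called 3 and 2 higher. Sln, sarcolipin, which restrains the calcium pump, had signals of 16.46, 15.45, 17.54 and 15.76 at day 7, against 13.70, 10.01, 14.40 and 13.41 at day 1. Kcnj3, a subunit of the acetylcholine-gated potassium channel, had signals of 11.12, 10.20, 12.31 and 11.29 at day 7, against 8.53, 8.89, 6.77 and 8.68 at day 1. Each had a single low day 1 array, Sln array 12 and Kcnj3 array 13, and no overlap with day 7. The differences were 3.42 ± 0.92, adjusted p = 0.0199 for Sln, or 2.47 without array 12, and 3.01 ± 0.56, adjusted p = 0.00489 for Kcnj3, or 2.53 without array 13. Sln was not called without array 71 or 73 (adjusted p 0.0512 to 0.0515). Gja5, connexin 40, differed by 0.80 ± 0.09, adjusted p = 0.000621. Myl7 and Myl4, light chains of atrial myosin, were not called (0.96 ± 0.96, adjusted p = 0.441 and 0.13 ± 0.33, adjusted p = 0.771), and array 12 had the lowest level of both. Array 12 was the lowest array in 8 of the 15 genes, and its part in these results was not tested beyond leaving it out.

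Genes of muscle under load were mostly lower at day 7. Of 16 tested, 10 were called lower and 2 higher, with the same counts without array 13. Flnc, filamin C, had signals of 9.95, 10.55, 9.29 and 9.28 at day 7, against 13.72, 12.22, 14.81 and 13.28 at day 1, a difference of -3.74 ± 0.53, adjusted p = 0.00155. Xirp1, a repeat protein of intercalated discs, had signals of 9.32, 9.73, 8.63 and 8.56 at day 7, against 12.52, 11.28, 12.89 and 12.07 at day 1, a difference of -3.13 ± 0.39, adjusted p = 0.000878. Ankrd2, a stretch-responsive protein, differed by -2.83 ± 0.19, adjusted p = 4.69e-05. Nppb, B-type natriuretic peptide, which rises with wall stress, had signals of 16.55, 16.86, 16.27 and 15.60 at day 7, against 17.74, 17.37, 17.73 and 17.78 at day 1, a difference of -1.33 ± 0.25, adjusted p = 0.00496. In all 4 genes no day 7 array reached the lowest day 1 array. Acta1, skeletal actin, was called higher (1.40 ± 0.36, adjusted p = 0.0171). Nppa and Ankrd1 could not be read at the ceiling.

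Sarcomere genes were called higher in 5 of 17 and lower in none, or higher in 8 after quantile normalisation and in 2 with days 1, 3 and 7 in the fit, while Myh6 and Tnnt2 sat on flat values. Mybpc3, cardiac myosin-binding protein C, had signals of 15.78, 16.07, 15.78 and 15.72 at day 7, against 13.78, 14.26, 11.65 and 12.98 at day 1, a difference of 2.67 ± 0.49, adjusted p = 0.00484. Tcap, telethonin, differed by 1.70 ± 0.36, adjusted p = 0.00779, and Ttn, titin, was not called (-0.15 ± 0.15, adjusted p = 0.414). Array 13 was the lowest array in 15 of the 17 genes, and the median of the list was 0.40 with it, 0.13 without it and 0.87 after quantile normalisation.

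Ion channel genes were called higher in 6 of 18 and lower in 1, or 11 and 0 after quantile normalisation, and the called Hcn2 was at background on all 8 arrays. Kcnj2, the inward rectifier channel, had signals of 9.23, 9.28, 9.17 and 8.85 at day 7, against 7.23, 8.19, 6.36 and 8.25 at day 1, a difference of 1.62 ± 0.40, adjusted p = 0.0139. Kcnip2, a subunit of the transient outward current, differed by 0.96 ± 0.25, adjusted p = 0.0169, and Kcna5, the ultra-rapid potassium channel of atria, was not called (0.17 ± 0.12, adjusted p = 0.287). Gja1, connexin 43, was the fall (-0.32 ± 0.11, adjusted p = 0.0469), not called without array 71, 72, 73, 74, 11, 12 or 14 (adjusted p 0.0506 to 0.1). Of 17 calcium handling genes 4 were called higher, a share near the 23.5% of protein-coding genes. Without array 71 or without array 73, 2 of them were called. Casq2, calsequestrin, differed by 0.47 ± 0.15, adjusted p = 0.0387 and was not called without array 71, 72, 73, 11 or 12 (adjusted p 0.0502 to 0.0921), while Ryr2, the calcium release channel, was not called (0.08 ± 0.25, adjusted p = 0.805), and Atp2a2 and Pln sat on flat values.

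Mitochondrial genes gave no call in the main lists. None of 38 genes of oxidative phosphorylation and none of 19 of the citrate cycle was called in limma with all arrays, and 2 and 1 had an unadjusted p under 0.05. Array 13 was the lowest of the 8 arrays in all 38 and in all 19, as it was in all 26 genes of fatty acid oxidation and all 16 of branched-chain amino acid breakdown. Idh3a, a subunit of isocitrate dehydrogenase, had signals of 15.67, 15.72, 15.81 and 15.50 at day 7, against 15.59, 15.82, 14.36 and 15.36 at day 1. Ndufa8, of respiratory complex I, had signals of 12.90, 13.12, 13.09 and 12.67 at day 7, against 13.18, 13.54, 11.47 and 12.63 at day 1. Their day 7 arrays lay inside the day 1 range. The median difference was 0.25 for oxidative phosphorylation and 0.39 for the citrate cycle with array 13, and 0.02 and 0.08 without it. Array 12 was at the other end, the highest array in 21 of 38 and 11 of 19, and without it 5 and 3 genes were called higher. After quantile normalisation 7 and 3 were called higher. Without array 13, Sdhd, of complex II, was called higher (0.59, adjusted p = 0.0472) and Suclg2, of succinyl-CoA synthesis, was called lower (-0.54, adjusted p = 0.0289).

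Of the fatty acid oxidation genes 1 of 26 was called higher, Ppargc1b, a transcriptional coactivator (0.26 ± 0.07, adjusted p = 0.0203), not called without array 71 or 72 (adjusted p 0.0555 to 0.0612). Its better-known relative Ppargc1a had signals of 13.17, 13.25, 13.38 and 13.16 at day 7, against 12.21, 13.12, 10.20 and 12.34 at day 1. Ppargc1a was higher on every day 7 array but not called with array 13 (1.27 ± 0.54, adjusted p = 0.088), and its difference was 0.68 (adjusted p = 0.0406) without array 13. The list had 6 called higher without array 12 and 4 after quantile normalisation. Of 16 genes of branched-chain amino acid breakdown 2 were called higher, or 5 without array 12. Hibch (0.90 ± 0.30, adjusted p = 0.0407) was not called without array 71, 72, 73, 74, 11 or 14 (adjusted p 0.0649 to 0.0949), and Acad8 (0.66 ± 0.22, adjusted p = 0.0402) was not called without array 71, 72, 73, 74, 11 or 14 (adjusted p 0.0593 to 0.0862); both are enzymes of that pathway. The signals of Atp5a1, Atp5b, Uqcrb and Fabp3 were flat, with their 4 day 7 values inside 0.02, and small changes cannot be seen there.

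**Figure D3:**
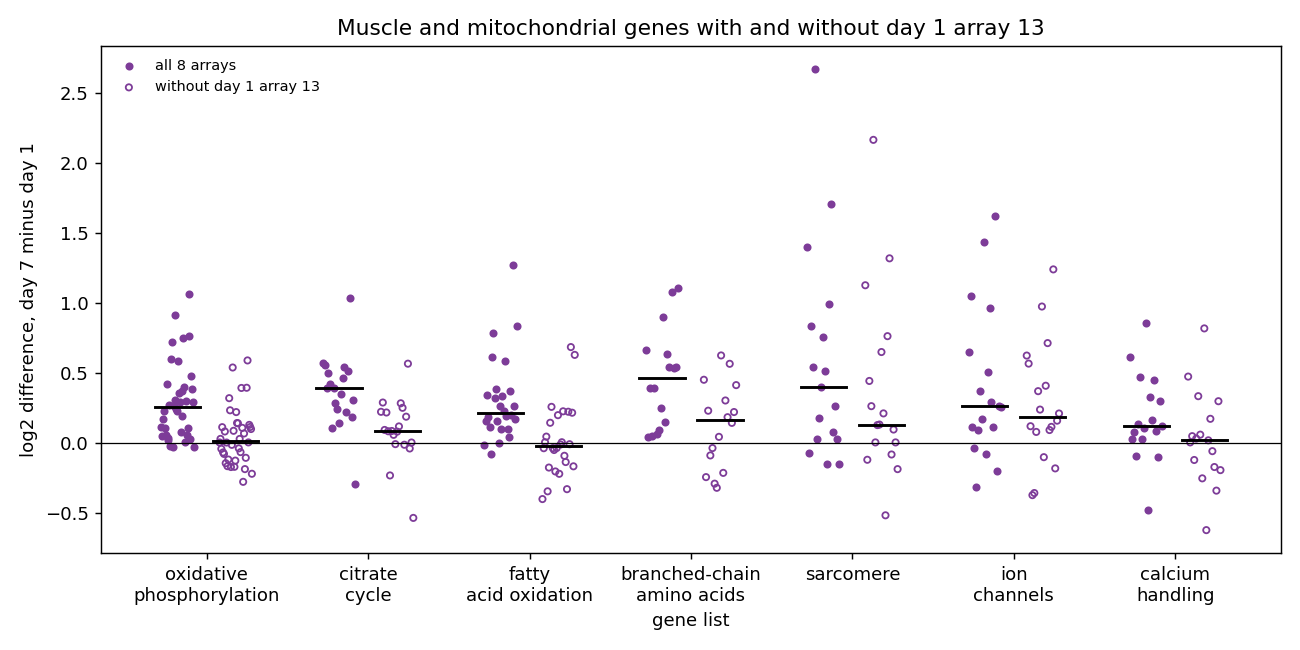
Log2 difference, day 7 minus day 1, of each tested member of 7 muscle and mitochondrial lists, with all 8 arrays (filled points) and without day 1 array 13 (open points). Black bars are list medians; for oxidative phosphorylation the median is 0.25 with array 13 and 0.02 without it, and for the citrate cycle 0.39 and 0.08.

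Rows of microRNA genes were lower or not called, with few exceptions. Of 6 tested microRNA host rows, 4 were called lower, with Mir142, of blood cells, at 4.50, 4.89, 4.56 and 5.10 at day 7, against 5.57, 5.72, 6.45 and 5.84 at day 1 (-1.13 ± 0.21, adjusted p = 0.0047) and Mir29a, known to target collagen transcripts, at 5.33, 5.39, 5.80 and 5.39 at day 7, against 6.05, 6.13, 6.01 and 5.92 at day 1 (-0.55 ± 0.11, adjusted p = 0.00644). Yet 136 of all 291 microRNA genes tested were called lower and 3 higher, with a median of -0.44. These rows measure transcripts of the gene, not mature microRNA, and the 4 falls are read against that background.

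**Figure D4:**
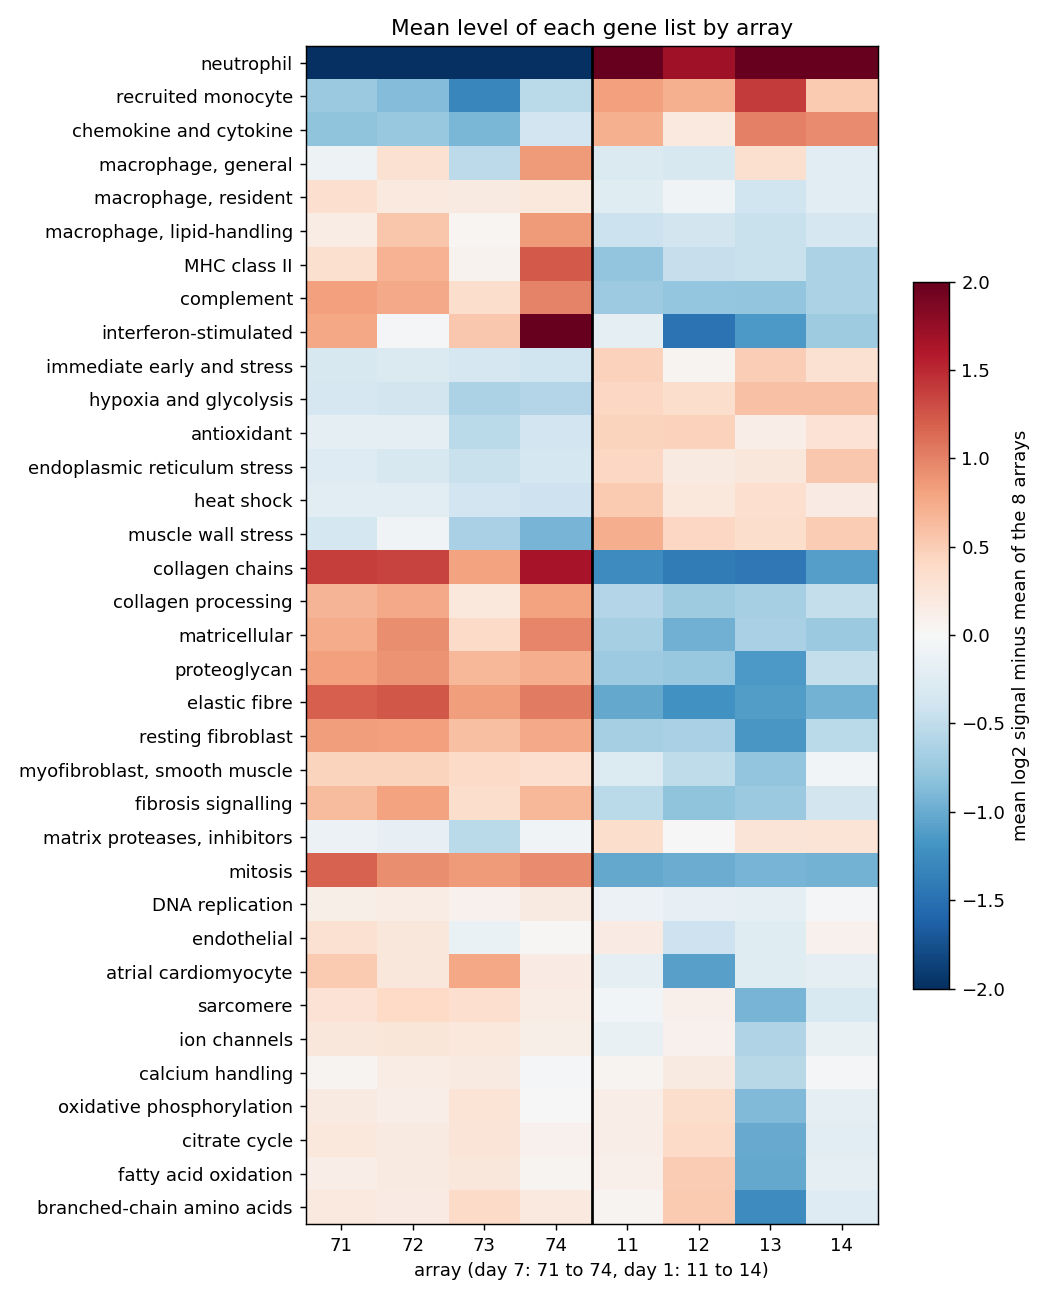
Mean log2 signal of the tested members of 35 gene lists on each array, after subtracting the mean of the 8 arrays, with day 7 arrays left of the black line and day 1 arrays right of it; values past 2 on either side take the end colour. Neutrophil genes are low on all day 7 arrays (4.87 to 5.09) and high on day 1 arrays (8.79 to 9.96), mitosis and elastic fibre genes are the reverse, and array 13 is lowest in the mitochondrial lists at the bottom.

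The lists differed in how far their groups stood apart on every array. For mitosis the mean level was 6.62 to 6.95 at day 7 and 4.75 to 4.84 at day 1, and for elastic fibres 8.27 to 8.67 at day 7 and 6.21 to 6.48 at day 1. For collagen chains it was 8.37 to 9.21 at day 7 and 6.13 to 6.46 at day 1. For these and for the neutrophil list the gap was wider than the range of either group. For interferon genes the ranges were 7.98 to 10.28 at day 7 and 6.55 to 7.83 at day 1, with array 74 the highest and array 12 the lowest. For oxidative phosphorylation they were 12.71 to 12.98 at day 7 and 11.82 to 13.05 at day 1, the day 7 range lying inside that of day 1.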

How the data were processed

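Biotin-labelled cRNA from total RNA was hybridised to Affymetrix arrays, 4 per group. The deposited values are log2 signals per transcript cluster, made by the authors with Affymetrix Expression Console (version not given), per the submitters' processing notes. The sources used here do not give how background was corrected or how probes were summarised and scaled. The array named in the design text is a 3' expression design, while the rows are transcript clusters, so the design stays unsettled and differences are differences of signal.

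The table holds 72688 rows: 6732 controls, 30604 with 1 gene symbol, 2146 with several and 33206 with none. Of the symbol rows, 30602 matched RefSeq (GRCm38.p6) and 1135 symbols were updated. The brightest row stood for each of 429 genes with several rows. The filter kept 17605 genes, those above the array's median on 4 or more of the 8 arrays. With 4 arrays per group, a gene could pass through its high group alone. Mmp8 and Hspa1a passed only through day 1, and Fmod and H2ac15 only through day 7. Such genes stand among the called ones and in the counts of lists and families, and their number was not taken. The 17605 genes were fitted with limma 3.58.1 in R 4.3.3 (eBayes with a trend, 8 arrays, no covariates, Benjamini-Hochberg). On simulated data with 17605 genes, 16 of 50 genes changed by 0.5, 36 of 50 changed by 1 and 47 of 50 changed by 2 were called. Only 200 genes were changed there, while 40% were called in the data. The adjustment of p-values therefore differs, and these rates need not hold for the data.

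Gene lists (48 lists, 725 of 798 genes on the table) and members were chosen with earlier results of these data known. A rule named the 12 largest non-overlapping rises and falls, each list's markers and 3 largest called members, and Nppa, Nppb, Actb and Gapdh. The ranking passed over clone-like symbols and ceiling genes and used the bound for genes at background in a group. Some genes named by the rule are not described above. Other genes in the text were chosen after their values were seen. Actb and Gapdh were looked at as a check. Actb differed by -0.65 (adjusted p = 0.0384) and was not called without array 71, 72, 11, 13 or 14 (adjusted p 0.0576 to 0.0804). Gapdh sat on a plateau, so no difference was read for it. The number of arrays limits precision. Alternatives were quantile normalisation, centring, other filters, other variance models, array weights, every row alone, more arrays in the fit, a threshold test and leaving out each array. A floor at the negative controls and subtraction of their median were added after seeing the data. Results for genes on rows with several symbols were not analysed here.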

Additional observations from a re-analysis of the deposited data

Results flagged for a closer look

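In 19 of 326 sets of 4 arrays looked at, over the 166 genes named by rule, 1 array stood far from the other 3 by Dixon's test of the gap against the range. Chance alone gives about 1 in 20 such sets. Of these, 6 were array 13, 4 array 73, 3 array 12, 2 array 74, 2 array 14, 1 array 71 and 1 array 72, and none was array 11. No cause was tested.

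Among day 7 arrays, array 73 was low in Timp1 (7.52, against 8.79 to 8.96 on the others) and in Itpr2 (7.69, against 7.96 to 7.98). It was high in Mir29a (5.80, against 5.33 to 5.39) and in Uqcrc2 (17.55, against 17.39), where the other 3 arrays held 1 identical value, a plateau, so no size is read from that gap. Array 74 was high in Il1r2 (4.48, against 4.17 to 4.20) and low in Hsp90aa1 (13.29, against 13.60 to 13.62). Array 71 was high in Hspa5 (13.01, against 12.72 to 12.76) and array 72 in Gadd45g (6.46, against 6.08 to 6.12).

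Among day 1 arrays, array 13 was low in Aspn (7.61, against 9.78 to 10.03), C1qa (7.07, against 7.63 to 7.73), Kcnj3 (6.77, against 8.53 to 8.89), Myl2 (8.27, against 8.90 or more, with the 4 day 7 arrays and array 12 on 1 identical value, a plateau) and Myom2 (13.91, against 14.32 to 14.40). It was high in S100a9 (13.89, against 12.34 to 12.56). Array 12 was low in Postn (12.76, against 13.47 to 13.48), Dkk3 (5.71, against 7.26 to 7.52) and Nppb (17.37, against 17.73 to 17.78). Array 14 was high in Sfrp1 (6.16, against 5.58 to 5.63) and low in Alas2 (6.11, against 6.24 to 6.27).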

How the results depend on the processing

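The count of 7046 called genes was 3436 with days 1, 3 and 7 in the fit and 990 in a test against a difference of 0.5. For genes called higher (3041) and lower (4005), the counts were 1945 and 1491 with days 1, 3 and 7, 526 and 464 in the test against 0.5, 5004 and 2547 after centring, 5806 and 2453 after quantile normalisation, and 6250 and 2173 after subtracting the negative control median. With all 16 arrays 2299 were lower. Calls of at least 1 (1881) were 1215 with all 16 arrays, 987 with days 1, 3 and 7 and 922 in the test against 0.5. Leaving out 1 array gave 2664 (without array 71) to 4240 (without array 12) genes called lower. The difference in control separation ranged over 0.0192 to 0.0356 without 1 array, and without any single day 7 array its exact p was 0.0571. All 145 called genes among the 166 named ones kept their sign under every alternative run, while up to 30 lost their call (days 1, 3 and 7 in the fit). The uncalled Myh4, at background, became -0.21 and called with a floor at the negative controls. The cause of these shifts was not tested. No paired analysis was possible because the groups share no replicate numbers and no label pairs their arrays. The dim end of the scale is limited by the negative controls: 662 called genes had 1 group at background and 202 had both. The bright end is limited by the plateau. Alternatives keep the deposited summarisation, which could not be varied.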

Other observations

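Families outside the lists were looked at after values were seen, so their counts are a description with no test. All 7 tested guanylate-binding protein genes and all 4 tested immunity-related GTPase genes, which interferon-gamma induces against intracellular microbes, were called higher at day 7, with medians of 2.50 and 2.60, also without array 13. Gbp2 had signals of 10.69, 10.07, 10.56 and 12.53 at day 7, against 9.07, 8.16, 8.07 and 8.53 at day 1. Iigp1 had 10.35, 10.03, 10.24 and 12.70 at day 7, against 8.30, 8.11, 6.96 and 7.69 at day 1. The groups did not overlap, and array 74 was about 2 units above the other day 7 arrays, as it was in the listed interferon genes.

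Replication-dependent histone genes, whose transcripts build up while DNA is copied, were called higher in 8 of 17, against none lower. H2ac10 had signals of 12.04, 12.52, 12.16 and 12.40 at day 7, against 9.34, 9.32, 8.84 and 9.67 at day 1. These near-identical genes may share probes, so single members are uncertain. Of 38 genes with proteasome symbols, 19 were called lower and 4 higher, with a median of -0.37. The 38 include Psmc3ip, which is not a proteasome subunit and was not called. The genes called higher were Psmb8, Psmb9, Psmb10 and Psmd10. After quantile normalisation 5 were lower and 5 higher. Among noncoding genes, 382 of 643 small nucleolar RNA genes and 234 of 594 small nuclear RNA genes were called lower, and 327 and 91 after quantile normalisation.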
